A study of Homo sapiens with 4 samples.

Results

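The 9 genes described here supply deoxynucleotides to replicating DNA or act at the replication fork as clamp, clamp loader or single-strand binding protein. They are TYMS, RRM1, RRM2, RRM2B, TK1, PCNA, RPA1, RPA2 and RFC1. They were chosen by symbol, and every site that the authors' deposited table pairs with one of these symbols was used. Of the 9 genes, 4 had a site, with 7 sites in all out of the 15131 sites of the table, and 5 had none. The share of 44.4% lay at the background, since 44.2% of 20056 protein-coding genes were paired with a site.

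BRCA2, a protein of homologous recombination, was immunoprecipitated from formaldehyde-crosslinked chromatin of log-phase hTert-HME1 cells. This human line of mammary epithelium was immortalized with telomerase. There were 2 BRCA2 ChIP libraries and 2 libraries of input chromatin, which is chromatin with no antibody step. All libraries came from 1 untreated cell line, and nothing in the labels says whether replicates were separate cultures, so the FDR may measure only technical spread. The series' design text names DiffBind for the comparison of ChIP with input. The table gives 1 mean per group and no value per library. The spread between replicates and the depth are therefore unknown, and no test beyond the FDR that came with the table could be made. None of the libraries is labelled as made with a control antibody, so binding by BRCA2 and non-specific recovery cannot be told apart. The table holds no expression values, so cell type markers could not be checked.

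DNA synthesis needs balanced deoxynucleotides. Ribonucleotide reductase makes them from ribonucleotides and is built from the large subunit RRM1 with a small subunit, RRM2 in S phase or the p53-induced RRM2B. Thymidylate synthase, encoded by TYMS, makes thymidylate anew, and thymidine kinase 1, encoded by TK1, recovers it from thymidine. PCNA is the sliding clamp that holds DNA polymerases on their template, and RFC1 is the large subunit of the complex that loads it. RPA1 and RPA2 are subunits of RPA, which covers single-stranded DNA during replication and repair.

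Of the 5 nucleotide enzymes 2 had a site, TYMS and RRM2B, and of the 4 clamp, loader and RPA genes 2 had one, PCNA and RPA2. TYMS stood far above the others. Its log2 fold of ChIP over input was 3.66 in the authors' deposited table, where the strongest site of PCNA had 1.63, that of RRM2B 1.39 and that of RPA2 0.79. The median log2 fold of all sites in the table was 1.15, with quartiles of 0.93 and 1.5, and the median of the 7 sites was 1.32. Of the 7 sites, 1 had a log2 fold of 2 or more, that of TYMS, as did 10.9% of all sites. All 7 sites were above input. At an FDR under 0.001, 3 of the 9 genes had a site, which was 33.3%, against 26.0% of protein-coding genes.

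**Figure D1:**
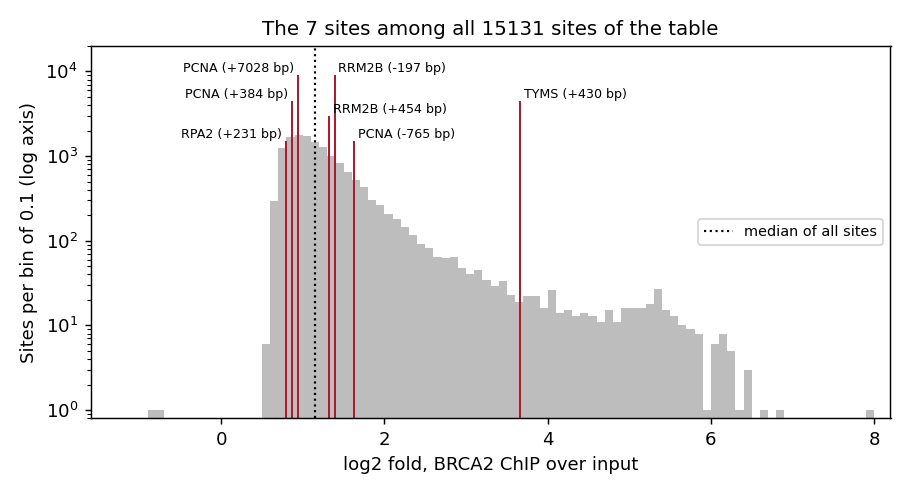
Histogram of the log2 fold of BRCA2 ChIP over input for all sites of the table, in bins of 0.1 on a log count axis, with red lines at the 7 sites labelled by gene and listed distance from its start. TYMS at 3.66 lies in the upper tail, and the other sites lie between 0.79 and 1.63, on both sides of the median of 1.15.

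All 4 genes with a site had one over the start or within 1 kb of it, so that 4 of the 9 genes (44.4%) had such a start site, against 23.4% of protein-coding genes. Of the 7 sites, 6 were start sites, and the other lay deep inside PCNA. Over the whole table, 5042 of the 15131 sites lay at a listed start. Of the 8855 protein-coding genes with a site, 4695 had a start site. With 9 genes the share of 44.4% rests on 4 genes. No test was made on it because the genes were chosen with results of these data known.

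TYMS had 1 site, on chromosome 18 at chr18:658034-658533 (hg19), inside the gene and 430 to 929 bp after its start. The authors' deposited table gave it a BRCA2 ChIP concentration of 8.55 and an input concentration of 4.89, both in log2 normalized reads. The difference is a log2 fold of 3.66, or 12.6-fold, with an FDR of 1.51e-30 in the authors' deposited table. Its ChIP level was higher than that of 96.9% of all sites, and its input level was higher than that of 14.7%. By fold it ranked 377 among all sites and 6 among the 171 sites of chromosome 18. Among start sites, 94.7% had a lower fold. The median input over the sites of chromosome 18 was 5.17, against 5.42 over all sites, and the part of this low input in the fold was not tested.

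The TYMS site also lay over the start of an opposite-strand gene. C18orf56, which RefSeq names TYMSOS, is a noncoding gene that starts 736 bp inside TYMS and runs back across the TYMS start. The site covered from 193 bp before the C18orf56 start to 306 bp after it, whereas its nearest edge was 430 bp from the TYMS start. RP11-806L2.5, another gene on the strand opposite to TYMS, starts 775 bp from the site and was paired with it too. One site with 1 value thus stands for all 3 genes, and its assignment to TYMS rests on the pairing. The nearest other site, paired with ENOSF1, a gene transcribed towards TYMS, was 45322 bp from the TYMS start, with a log2 fold of 1.41 in the authors' deposited table.

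PCNA had 3 sites on chromosome 20, more than any other of the 9 genes. Of the protein-coding genes with a site, 12.2% had 3 or more. The site at chr20:5106888-5107387 (hg19) covered the start, from 115 bp before it to 384 bp after it. Its ChIP concentration was 6.26 and its input concentration 5.39, with a log2 fold of 0.87 at an FDR of 0.0159 in the authors' deposited table. A lower fold was found at 12.5% of start sites, so the site over the PCNA start itself was among the weaker start sites listed.

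The strongest PCNA site lay upstream, at chr20:5108037-5108536 (hg19), from 1264 to 765 bp before the start. It had a ChIP concentration of 6.22 and an input concentration of 4.59, with a log2 fold of 1.63 at an FDR of 0.00014 in the authors' deposited table. Its ChIP level was the lowest of the 3 PCNA sites, and so was its input level, which was higher than that of only 6.44% of all sites. ChIP concentrations of the 3 sites ranged from 6.22 to 6.57 and their input concentrations from 4.59 to 5.63. The sites had the same order by ChIP as by input, and their folds followed neither order. The part of the low input in the fold was not tested.

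The third PCNA site lay at chr20:5100244-5100743 (hg19), 6529 to 7028 bp inside the gene. It had a ChIP concentration of 6.57, the highest of the 3, and an input concentration of 5.63, with a log2 fold of 0.94 at an FDR of 0.00825 in the authors' deposited table. RefSeq lists a second, inner start of PCNA 6664 bp after its first. That distance is measured on GRCh38.p14 and the site on hg19, with different annotations, so whether the site covers the inner start was not established. The site was also paired with SNORA26, a small nucleolar RNA gene on the same strand, 1320 bp away by the shortest distance.

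Both start sites of PCNA were shared with CDS2, which encodes an enzyme of CDP-diacylglycerol synthesis in phospholipid metabolism. CDS2 starts 160 bp from PCNA and is transcribed away from it. The site over the PCNA start lay 45 bp before the CDS2 start, and the upstream site lay 605 bp inside CDS2. Next to PCNA on its other side, a site paired with TMEM230 was 13443 bp from the PCNA start and had a log2 fold of 1.56 in the authors' deposited table.

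**Figure D2:**
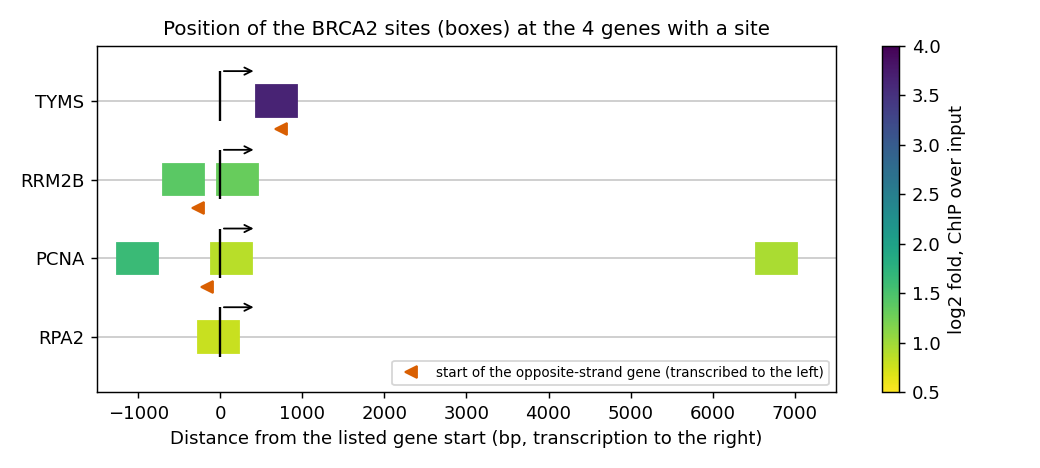
Boxes show the 500 bp sites by distance from the listed gene start in bp, with transcription to the right, coloured by log2 fold of ChIP over input. Orange triangles mark the start of the opposite-strand gene paired with the same site. RRM2B and PCNA each have a box over the start and a box before it, the TYMS box lies after its start and over that of C18orf56, and PCNA alone has a box far inside the gene.

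The promoters of PCNA and TYMS are shown because these genes had the strongest sites of the 9, with TYMSOS because the TYMS site covered its start, and with RRM2 and TK1 as S-phase genes that had no site. Each sequence is the RefSeq window from 250 bases before to 50 bases after a start on GRCh38.p14, 300 bases long, on the gene's own strand. They lie at chr20:5126573-5126872 and, for the inner start, chr20:5119909-5120208 on the minus strand, chr18:657403-657702 on the plus strand and chr18:658242-658541 on the minus strand. Those of the inner starts of RRM2 and TK1 lie at chr2:10122489-10122788 on the plus strand and chr17:78187003-78187302 on the minus strand. Capitals mark the searched motifs on either strand. These were CCAAT (the CCAAT box), GGGCGG (the Sp1 box), CGGAAG (an ETS core), TATAAA (the TATA box), TGANTCA (AP-1), an NRF1 motif, and the E2F words TTTCCCGC or TTTGGCGC or TTTCGCGC or TTTGCCGC.
PCNA, first start: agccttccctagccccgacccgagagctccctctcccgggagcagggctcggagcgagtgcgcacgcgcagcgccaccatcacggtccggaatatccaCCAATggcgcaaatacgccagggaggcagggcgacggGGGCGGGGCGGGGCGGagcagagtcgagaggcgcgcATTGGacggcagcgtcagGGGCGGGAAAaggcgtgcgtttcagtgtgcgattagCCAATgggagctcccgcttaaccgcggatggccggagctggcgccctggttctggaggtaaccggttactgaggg
PCNA, inner start: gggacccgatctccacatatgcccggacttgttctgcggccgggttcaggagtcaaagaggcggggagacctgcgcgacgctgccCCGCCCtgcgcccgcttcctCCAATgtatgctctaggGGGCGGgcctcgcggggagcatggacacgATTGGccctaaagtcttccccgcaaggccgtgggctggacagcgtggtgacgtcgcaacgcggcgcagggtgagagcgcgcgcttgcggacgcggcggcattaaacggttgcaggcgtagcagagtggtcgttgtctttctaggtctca
TYMS: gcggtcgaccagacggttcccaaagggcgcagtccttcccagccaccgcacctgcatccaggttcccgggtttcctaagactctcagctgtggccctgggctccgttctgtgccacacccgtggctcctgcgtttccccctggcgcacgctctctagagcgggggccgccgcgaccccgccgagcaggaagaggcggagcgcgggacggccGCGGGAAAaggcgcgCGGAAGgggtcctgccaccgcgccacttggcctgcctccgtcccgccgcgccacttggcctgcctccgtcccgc
TYMSOS: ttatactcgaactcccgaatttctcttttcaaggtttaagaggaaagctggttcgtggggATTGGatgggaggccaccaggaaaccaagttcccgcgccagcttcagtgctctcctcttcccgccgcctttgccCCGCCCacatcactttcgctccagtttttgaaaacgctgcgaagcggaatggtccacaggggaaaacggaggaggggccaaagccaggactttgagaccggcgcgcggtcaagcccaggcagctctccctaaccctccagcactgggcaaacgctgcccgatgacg
RRM2, inner start: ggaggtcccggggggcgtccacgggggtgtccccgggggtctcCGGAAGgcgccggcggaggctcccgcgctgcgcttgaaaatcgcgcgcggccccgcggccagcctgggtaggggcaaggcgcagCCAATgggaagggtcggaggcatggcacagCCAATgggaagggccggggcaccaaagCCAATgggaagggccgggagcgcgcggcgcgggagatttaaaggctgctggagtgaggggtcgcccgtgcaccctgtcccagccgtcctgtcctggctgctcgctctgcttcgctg
TK1, inner start: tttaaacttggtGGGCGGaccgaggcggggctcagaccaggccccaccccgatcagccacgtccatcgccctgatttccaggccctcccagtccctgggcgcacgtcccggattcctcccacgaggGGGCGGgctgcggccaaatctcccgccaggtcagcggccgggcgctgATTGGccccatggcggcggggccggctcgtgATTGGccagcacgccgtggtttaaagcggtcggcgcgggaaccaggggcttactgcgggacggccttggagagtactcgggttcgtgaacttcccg

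The PCNA window at the first start held 3 CCAAT boxes, 4 Sp1 boxes, of which the first 3 overlap in a row, and 1 E2F word, which overlaps the fourth Sp1 box. The TYMS window held 1 E2F word and 1 ETS core and neither a CCAAT nor an Sp1 box. An E2F word stood in 3.31% of all 35116 RefSeq windows of that length, a CCAAT box in 34.6% and an Sp1 box in 45.0%. An ETS core stood in 19.5% of the windows, TATAAA in 11.5%, TGANTCA in 7.71% and the NRF1 motif in 1.24%. The windows of 7 of the 9 genes were in the RefSeq table, without RPA2 and RRM2B. Of these 7, PCNA, at its first start only, and TYMS held an E2F word. The PCNA window at the inner start and those of RRM1, RRM2, TK1, RPA1 and RFC1 held none of the 4 words. RPA2 and RRM2B, which also had sites, could not be searched, and a link of E2F words with sites was not tested. The RRM2 window shown held 3 CCAAT boxes and no Sp1 box, that of TK1 held 2 CCAAT and 2 Sp1 boxes, and that of TYMSOS held 1 of each. The windows at the first starts, not shown, differed. That of RRM2 held 1 CCAAT and 1 Sp1 box, and that of TK1 held 3 Sp1 boxes and no CCAAT box. RRM2 and RFC1 each held an ETS core, the first TK1 window held a TATAAA, and no window of the 7 genes held an AP-1 or NRF1 motif. By the listed distances, the TYMS site lay after its window, while the site over the PCNA start reached into such a window. The distances are from starts on hg19 and the windows from starts on GRCh38.p14, with different annotations, so neither position was established. These matches describe letters and not bound factors.

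RPA2 had 1 site, over its start on chromosome 1 at chr1:28241026-28241525 (hg19), from 268 bp before the start to 231 bp after it. The authors' deposited table gave it a ChIP concentration of 6.71 and an input concentration of 5.92, a log2 fold of 0.79 at an FDR of 0.0133. This was the lowest fold of the 7 sites, and 9.27% of all sites had a lower one. The ChIP level exceeded that of 58.7% of all sites, and the input level exceeded that of 87.5%. RPA2 was the only one of the 4 genes whose start site was paired with no other gene. The nearest other site was 39004 bp away, inside THEMIS2, with a log2 fold of 0.99 in the authors' deposited table.

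RRM2B had 2 sites on chromosome 8, 1 over its start and 1 upstream of it, that lie 151 bp apart. The site over the start, at chr8:103250892-103251391 (hg19), ran from 45 bp before to 454 bp after it. It had a ChIP concentration of 6.33 and an input concentration of 5.02, with a log2 fold of 1.32 at an FDR of 0.000936 in the authors' deposited table. The upstream site, at chr8:103251543-103252042 (hg19), ran from 696 to 197 bp before the start. It had a ChIP concentration of 6.75 and an input concentration of 5.36, with a log2 fold of 1.39 at an FDR of 5.62e-05 in the authors' deposited table. The upstream site was higher in ChIP and in input, so the folds lay close together. With no value per library, whether these sites differ could not be tested.

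Both RRM2B sites were shared with KB-431C1.4, a gene of the opposite strand that starts 276 bp from RRM2B. The upstream site lay over its start. No further site was near, since the closest, paired with NCALD, was 336301 bp from the RRM2B start. RRM2B and PCNA thus each had a pair of start sites. Of the protein-coding genes with a start site, 4.07% had 2 or more. Sites shared with a listed start on each strand made up 5 of the 6 start sites of the 9 genes and 26.0% of all start sites in the table. These 5 sites come from 3 loci and are not independent.

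**Figure D3:**
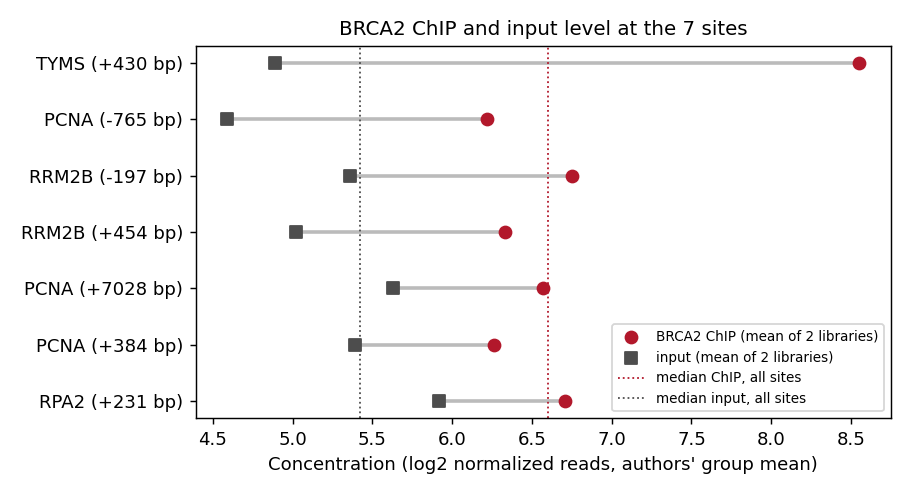
Authors' group mean concentration in log2 normalized reads at each of the 7 sites, with red circles for BRCA2 ChIP and grey squares for input, each the mean of 2 libraries with no error available. Dotted lines mark the medians of all sites, 6.60 for ChIP and 5.42 for input. Only TYMS, at 8.55, lies well to the right of the ChIP median, while the input of PCNA at -765 bp, 4.59, is the lowest.

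Over the 7 sites the median ChIP concentration was 6.57, against 6.60 over all sites of the table, and the median input concentration was 5.36, against 5.42. Apart from TYMS, ChIP concentrations ranged from 6.22 to 6.75 and input ranged from 4.59 to 5.92. Taking each gene by its strongest site, the median log2 fold was 1.51 over the 4 genes and 1.31 over the 8855 protein-coding genes with a site. TYMS exceeded 94.9% of those 8855 genes.

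The other 5 genes, RRM1, RRM2, TK1, RPA1 and RFC1, had no site in the table. No site in the table has an FDR above 0.05, so regions that did not meet that limit are not listed. Absence from the table does not show that BRCA2 was absent. Some of their neighbours were paired with sites, but the distance of those sites from the 5 genes was not measured. Of the 4 nearest protein-coding genes in the RefSeq gene order, 4 had a site for RPA1, 3 for RRM2, 2 for TK1, 1 for RRM1 and 1 for RFC1. That is 11 of 20 neighbours, or 55.0%, against 44.2% of protein-coding genes. The gene order is that of GRCh38.p14 and the sites are on hg19. A neighbour missing from the annotation of the sites could not be paired, and whether any was missing is unknown.

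TK1, the thymidine salvage kinase, has BIRC5, the gene of the mitotic regulator survivin, as a near neighbour. BIRC5 had a site over its start with a ChIP concentration of 6.04, an input concentration of 4.55 and a log2 fold of 1.49 in the authors' deposited table. C17orf99, on the other side, was paired with a site 4664 bp before its start that had a log2 fold of 1.60 in the authors' deposited table. AFMID and SYNGR2, which flank TK1 directly, had none. RRM1, the large reductase subunit, has as a neighbour STIM1, a calcium sensor of the endoplasmic reticulum, which had a site 117 bp inside its own start with a log2 fold of 1.52 in the authors' deposited table. RPA1, the large RPA subunit, adjoins SMYD4, whose site lay 43197 bp from the SMYD4 start with a log2 fold of 1.19 in the authors' deposited table. The strongest site among the RPA1 neighbours was paired with DPH1, an enzyme of diphthamide synthesis, with a log2 fold of 1.88 at an FDR of 0.00807 in the authors' deposited table.

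RRM2, the S-phase reductase subunit, had no row of its own, but RefSeq now gives C2orf48 as another name of RRM2. C2orf48 is a separate gene in the table, with a site at chr2:10277353-10277852 (hg19), 4156 bp before its start. That site had a ChIP concentration of 7.0 and an input concentration of 5.58, with a log2 fold of 1.42 at an FDR of 1.89e-05 in the authors' deposited table. The C2orf48 site was not counted for RRM2. With it, 5 of the 9 genes would have a site and the count near starts would not change. The strongest site among the RRM2 neighbours was that of ODC1, ornithine decarboxylase, 9224 bp from its start and past its end, with a log2 fold of 2.04 at an FDR of 1.08e-07 in the authors' deposited table. 

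RFC1, the clamp loader subunit, lies on chromosome 4, where sites were sparse. That chromosome had 177 sites, or 23.0 per 100 protein-coding genes, against 75.4 over all chromosomes, and its sites had a median input concentration of 4.51, against 5.42 over all sites. The part of this low input in the lack of an RFC1 site was not tested. The chromosomes of the other genes without a site had 67.6 to 93.0 sites per 100 genes and a median input of 5.43 to 5.47. Its neighbours KLHL5, WDR19 and KLB had no site, and RPL9, a ribosomal protein gene, had a start site with a log2 fold of 1.48 in the authors' deposited table.

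The other genes of these pathways were taken from 2 lists. The list of clamp, loader, RPA and replicative polymerase genes held 30 genes, of which 21 had a site and 17 a start site. That is 70.0% and 56.7%, against 44.2% and 23.4% of protein-coding genes. A log2 fold of 2 or more was found at RFC4 and POLD1, which is 6.67% of the list, against 7.82% of protein-coding genes. RFC4, a small loader subunit, had 2.43 in the authors' deposited table at a site 16743 bp from its start, and 1.17 at its start site. POLD1, the catalytic subunit of DNA polymerase delta, had 2.24 over its start. POLE, that of DNA polymerase epsilon, had 1.89 in the authors' deposited table, with a low input concentration of 3.64. ATAD5, which unloads PCNA, had 1.76, and POLE4, a small epsilon subunit, had 1.67 in the same table.

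The strongest sites of the 21 genes ranged from 0.92 to 2.43 in log2 fold. RPA3, the smallest RPA subunit, had a log2 fold of 1.41 in the authors' deposited table at a site 77415 bp from its listed start, and no start site. PCLAF, a PCNA-binding factor listed as KIAA0101, had 1.35 over its start. POLD4 had 1.41 at a site past its end, RAD17, the loader of the checkpoint clamp, 1.33, and POLE3 1.29 in the authors' deposited table. RFC2, RFC3 and RFC5, the other small loader subunits, had 0.96, 1.06 and 1.18 in the authors' deposited table. All small subunits of the clamp loader were paired with a site, as were 44.2% of protein-coding genes. RFC5 had its only site 2936 bp inside the gene and no start site. The large subunit, RFC1, had none, and the part of the sparse sites of chromosome 4 in this was not tested. The 9 genes of the list without a site included LIG1, POLA1, PRIM2 and RAD9A.

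The list of other nucleotide synthesis genes held 32 genes. Of these, 20 had a site (62.5%) and 16 of the 32 a start site, against 44.2% and 23.4% of protein-coding genes. NME1 and NME2 shared 1 site, as did PAICS and PPAT, and a shared site counts once for each gene. The share over all genes was counted in the same way. With a log2 fold of 2 or more there were 5 genes, 15.6% of the list, against 7.82% of protein-coding genes. DUT, the dUTPase that keeps uracil out of DNA and makes the substrate of thymidylate synthase, had a log2 fold of 4.45 at an FDR of 1.2e-46 in the authors' deposited table, 282 bp inside its start. ChIP and input concentrations there were 9.96 and 5.51. Purine synthesis followed with ADSL at 3.69, at a start site in the authors' deposited table. PAICS and PPAT, whose starts lie 126 bp apart on opposite strands, shared 1 site with 2.84. ATIC had 2.51 at a site past its end, 47311 bp from its start, and 1.36 at its start site. IMPDH2 had 1.73, CTPS1 1.69, CAD 1.63, PFAS 1.59 and DGUOK 1.37 in the same table. DTYMK, the kinase that acts on thymidylate, had no site, and neither had DCK or SAMHD1.

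**Figure D4:**
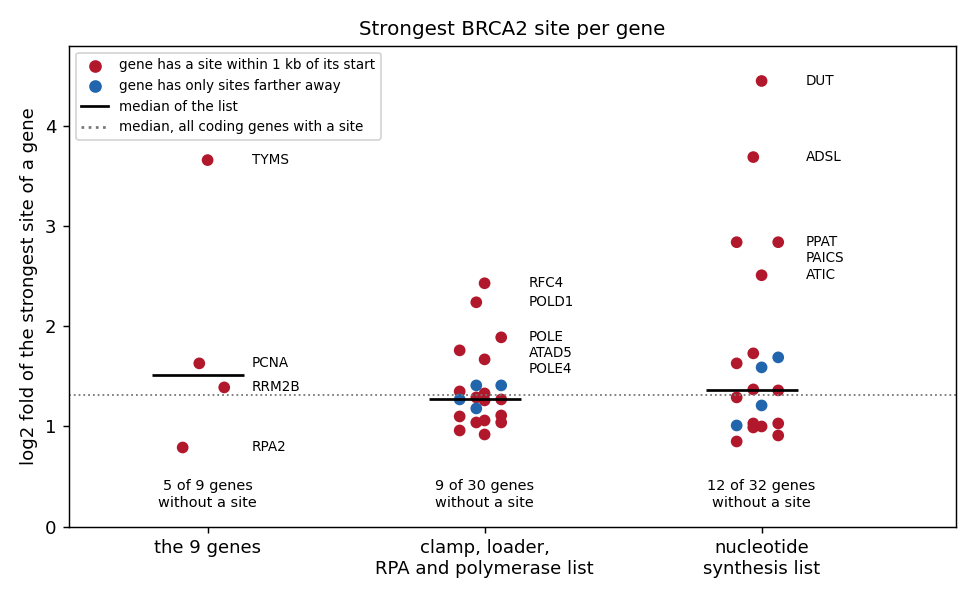
Log2 fold of the strongest site of each gene for the 9 genes and both pathway lists. Red marks genes with a start site, which need not be the site plotted, and blue those whose sites are all farther away. Black bars are list medians, 1.51, 1.27 and 1.37, the dotted line is the median of 1.31 over all protein-coding genes with a site, and genes without a site are counted below. TYMS at 3.66 and DUT at 4.45 top their columns.

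With each gene taken by its strongest site, the median log2 fold was 1.27 in the clamp and loader list and 1.37 in the nucleotide synthesis list, close to the 1.31 of all genes with a site. The share of genes with any site was above the background in both lists and at the background in the 9 genes. With a log2 fold of 2 or more, the clamp and loader list was not above it. These differences were not tested.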

How the data were processed

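BRCA2 ChIP and input chromatin of hTert-HME1 cells were sequenced in 2 libraries each. Per the submitters' processing notes, the hg19 build was used with Bowtie 1.1.1, Picard 1.92, cutadapt 1.8.1, DiffBind, MACS2 and SAMtools, in no stated order. Scaling, model and annotation release were not given in the sources used here. Per site, the authors' deposited table gives, per the file headers, a log2 concentration for each group, a log2 fold of ChIP over input and an FDR (q-value). The log2 fold lay within 0.01 of the difference of the deposited concentrations. Depth per library is unknown, so precision could not be given.

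Rows were matched to RefSeq protein-coding genes (GRCh38.p14, names and order only) by Entrez ID, then symbol. Start positions were shifted to count from 1, and gene starts were read back from the listed distances. A start site lies over the start or within 1 kb by the listed distance. The members and lists were chosen with earlier results of these data known. The named genes are the members, up to 10 genes per list by largest fold, and genes that share or neighbour a member's site. Other list genes named were chosen after their values were seen. Motif search and distances were tested on simulated data. Python 3.11.15, pandas 2.3.3 and matplotlib 3.10.9 were used. No statistical test was run, and a second deposited list of symbols was not used. Some list genes are counted but not reported by name here.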

Additional observations from a re-analysis of the deposited data

How the results depend on the processing

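No paired analysis was possible because the table holds 1 mean per group and no value per library, so leaving out a replicate could not be run either. Counts of genes with a site depended on the threshold. With log2 folds of 2 or more, 1 of the 9 genes, 2 of the clamp and loader list (6.67%) and 5 of the nucleotide synthesis list (15.6%) had a site, against 7.82% of protein-coding genes, so the excess of the clamp and loader list over all genes was not seen there. At an FDR under 0.001 these lists had 13 (43.3%) and 12 (37.5%), while the 9 genes had 3 (33.3%), against 26.0% of protein-coding genes. All other counts, at an FDR under 0.01, a log2 fold of at least 1, or other windows and distances around the start, stayed within 1.5 times those reported. For the 9 genes they were 3 or 4. Unknown depth limits what the absence of a site can show.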
